A study of Mus musculus with 158 samples.

Results

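In PDA530 Met cells, a mouse pancreatic adenocarcinoma line derived from a liver metastasis, 91 short hairpin RNAs (shRNAs) against 79 genes were much rarer after 28 days in culture than at the start. They were chosen by their measured share, which is the reads of a hairpin as a percentage of all reads from targeting hairpins of the same pool in a library. A member had a mean share of at least 0.5% at day 0 and a mean share in culture of at most 25% of that. The 91 members were 13.6% of the 668 hairpins with a day 0 share of at least 0.5%. Those 668 were drawn from 946 targeting hairpins in the 18 pools that had both day 0 and culture values, out of 1000 targeting hairpins against 285 genes in the series. Because day 0 and culture shares chose the members, their difference is given as a description with no test.

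Per the labels' protocols, the cells received 1 of 19 hairpin pools by virus at a low multiplicity of infection and were selected with puromycin. The arms compared were 3: a cell pellet taken at day 0, cells kept in parallel culture for 28 days, and lungs collected 28 days after injection of the same cells into the tail vein of a mouse, with all lung tumours of a mouse combined. All cells came from 1 line and all carried a hairpin, so no arm was free of virus, and each pool also held 8 control hairpins. A library is named here by pool and replicate letter, as in lung 9C. The labels do not say that day 0 or culture letters were separate infections, so the spread between them may be technical. After technical repeats were joined there were 56 day 0, 37 culture and 49 lung libraries with values, with 2 to 3 at day 0, 3 to 6 in culture and 2 to 3 in lungs for each pool that holds members. All lung values of pool 3 were missing, which leaves 84 members with values in lungs.

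A hairpin of this kind is transcribed in the cell, processed to a small RNA and loaded into the RNA-induced silencing complex, which degrades the messenger RNA that it matches. Since the hairpin is integrated in the genome, its count in genomic DNA follows the number of cells that carry it and not the RNA level of its target. In a pooled screen a hairpin that slows growth of its cells, through its intended target or through another transcript, becomes rarer with time. Several hairpins per gene are used because single hairpins differ in knockdown and can act on unintended transcripts. Hairpin sequences and genome positions were not used here, and members are given by their clone number and target symbol.

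Library depth was 4122499 to 22155107 reads at day 0, 4525346 to 26068466 in culture and 58189 to 13887946 in lungs. A member had at least 17707 reads in each day 0 library and at least 172 reads in each culture library. The 95% Wilson interval around a single share was at most 1.47% of the share to either side at day 0 and at most 15.0% in culture. These intervals cover counting error only, since PCR copies of 1 molecule were not told apart. Lungs were less even: 17 of 236 pairs of a member and a lung library had under 100 reads, 9 of them in lung 10C and lung 16D. The pool's own targeting hairpins gave 1946 of 5658227 reads in lung 10C (0.0344%) and 42538 of 6280972 reads in lung 16D (0.677%). Of the reads in lung 10C, 99.2% were of control hairpins, and of those in the library labelled lung 16D, 4457119 (71.0%) were of hairpins of pool 10, which goes against its label. In the other 47 lung libraries the own pool took at least 25.5% and another pool at most 14.5%, the latter being pool 10 in lung 17A. The labels do not settle this, and every value below for the library labelled lung 16D rests on the 0.677% that matched pool 16. Lung values of single hairpins of pools 10 and 16 are therefore also given without these libraries. In pool 16 this leaves lung 16E alone, whose spread cannot be measured, so only the log2 difference is given there.

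The mean culture share of the 91 members ranged from 2.73% to 24.9% of the day 0 mean, with a median of 18.3%. Over all 668 hairpins of sufficient day 0 share the median was 72.5%. Every culture share of every member lay below every one of its day 0 shares, and in 45 members every culture library was at or below 25% of the day 0 mean. Both counts use the values that chose the members, so the rule in large part fixed them. They were not made over all 668 hairpins and are not read as a result. Only 1 member had a culture library above 50% of its day 0 mean, the hairpin against Ttn. None of the 335 pairs of a member and a culture library had 0 reads, so these hairpins were depleted and not absent. Shares of a pool add up to 100%, so a share also falls when other hairpins of the pool expand. On a scale set by TMM, which takes the bulk of the pool's hairpins as unchanged, all 91 members stayed at or below 50% of day 0, with a median of 27.5% and a highest value of 44.3%, but only 35 stayed at or below 25%.

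The borders of the selection were close. Just inside lay hairpins against Hmcn1 (24.2% of day 0), Sipa1l2 (24.2%, TRCN0000253357) and Ttn (24.9%). Just outside lay hairpins against Nalcn (25.02%), Dst (25.2%) and Rab14 (25.2%, TRCN0000089377). The members with the lowest day 0 means were those against Eftud2 (0.513%), Csmd3 (0.529%) and Ccdc63 (0.529%), while hairpins against Il2rg (0.478%) and Ruvbl1 (0.477%) met the culture limit and missed the day 0 limit. In all, 54 hairpins met the culture limit with a day 0 share below 0.5%.

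All 18 pools held members, but unevenly. Pool 17 had 11 members among 38 hairpins of at least 0.5% (28.9%) and pool 16 had 9 among 34 (26.5%), whereas pools 1 and 19 had 1 each. Pools 3, 9, 14 and 15 held 7 each and pool 7 held 8. In pool 17 the 11 members together made up 24.1% ± 0.111 (SD, n = 3) of the pool at day 0, 3.97% ± 0.458 (SD, n = 3) in culture and 8.30% ± 2.29 (SD, n = 3) in lungs. The 9 members of pool 16 went from 21.7% ± 0.601 (SD, n = 3) at day 0 to 3.87% ± 0.461 (SD, n = 5) in culture, and took 11.0% of the library labelled lung 16D and 7.96% of lung 16E. Most cultures carried 2 neighbouring pools and were counted for both, so members of those pools share culture libraries.

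Pools 9, 10, 15, 16 and 19 were cultured more than once. All sets entered the mean that chose the members, so the values of each set are a description. All 7 members of pool 9 were at or below 25% of day 0 in each of its culture sets separately, at a median of 14.4% when grown with pool 8 and of 14.7% when grown with pool 10. The same held for the 5 members of pool 10 (medians of 19.0% and 19.8%) and the single member of pool 19. In pool 15, 6 of 7 members met the limit in the set grown with pool 14 and 5 of 7 in the library grown alone. In pool 16, 7 of 9 met it in the set grown with pool 17 and 6 of 9 in the pair grown alone. The values that missed the limit went up to 36.5% of day 0.

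Lungs were tested against day 0 across all hairpins of a pool with limma on log2(CPM + 1), where CPM is the read count scaled to the total of the pool's own targeting reads with TMM factors, and a log2 difference is lungs minus day 0. A call is a Benjamini-Hochberg adjusted p under 0.05 over 891 hairpins. The lung libraries did not enter the choice of members, whereas the day 0 libraries did, and what part this shared baseline has in the lung result was not tested. Of the 84 members tested, 39 were lower in lungs, 3 were higher and 42 were not called. Among all 891 hairpins tested, 170 (19.1%) were lower and 131 (14.7%) were higher, and among the 631 with a day 0 share of at least 0.5%, 126 (20%) were lower and 113 (17.9%) were higher. With own-pool totals in place of TMM, the split over all 891 was 257 lower and 83 higher, and with the deposited scaling it was 178 and 78. The median log2 difference was -1.49 over the members, -0.13 over all hairpins tested and -0.04 over those of at least 0.5%.

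Expressed as shares, 34 members had a mean in lungs of at most 25% of the day 0 mean, 26 lay above 25% and at most 50%, 15 above 50% and at most the day 0 mean, and 9 above it. Among the 631 hairpins of at least 0.5%, 92 lay at or below 25% and 217 above the day 0 mean. The median lung share was 29.0% of day 0 for the members and 73.7% for the 631. Every lung share lay below every day 0 share in 67 members (46.6% of the 631 did so), and every lung share lay above in 2, the hairpins against Pak1ip1 and Coro1c (16.3% of the 631). Without lung 10C and the library labelled lung 16D these counts were 68 (48.2% of the 631) and 2 (18.4%). At least 1 lung library exceeded the day 0 mean in 14 members, a count that was not made over the 631.

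The calls depended on which replicates entered the fits. Each omission removed 1 replicate letter from every pool at once, so a hairpin's adjusted p also moved with the other pools, while its log2 difference moved with its own pool alone. The count of 39 members lower in lungs became 16 without day 0 replicate A, 15 without day 0 replicate B and 17 without day 0 replicate C, and it lay between 35 and 44 without any other replicate letter. All calls, 301 of 891 hairpins, numbered 148, 154 and 160 in the same settings and 388 without lung replicate A. Without lung 10C and the library labelled lung 16D it was 47, of which 7 lay in pool 16, where 1 lung library remained, compared with 3 from that pool when all libraries were used. Of the 39 lower calls, 12, against 11 genes, held when each letter of their pool was left out in turn. They target Apc, Ctnnb1, Klf5 (both hairpins), Mall, Pbrm1, Pdcd6, Plaur, Pxdn, Slc16a4, Slit2 and Timeless. Of the 3 higher calls, those for Coro1c and Upp1 held in the same way. This was counted for members only and not for the rest of the 301 calls, so it is not read as a trait of the members. The pools of Slit2 and Upp1 have 2 lung libraries, so omitting a lung leaves 1, with the spread taken from day 0 alone, and only the omissions of day 0 libraries bear on these calls. For every other call described below, the omissions that ended it are given beside it. Among the 42 members not called, the log2 difference changed sign in 16 when 1 library of the pool was missing. With a letter left out and 2 or more lungs of the pool remaining, 11 of the 42 were called lower, those against Calu, Celsr2, Dpp6, Grb10 (TRCN0000109915), Pik3cd (TRCN0000024646), 2810432D09Rik, Ryr2, Srrm2, Tfb2m, Wdr3 and Whsc2. The counts of 16 and 11 were also made for members only, with no share over all hairpins to set beside them. The count of lower calls also moved with scaling, from 26 with control hairpins as the reference to 47 with own-pool totals, and stood at 31 with edgeR's quasi-likelihood test on the same reads. Of the 39 lower calls, 25 were also made with control hairpins, 28 with edgeR and 30 with the deposited values. Calls ended in these settings are not named for members outside the rule for naming. Among the called members given library by library under the rule for naming, control hairpins as the reference ended the calls for Aff4 (TRCN0000103586), Dctn4, Golt1b, Lrp1b, Myh2, Pik3cd (TRCN0000361415), Sec63 (both hairpins) and Slit2, with limma adjusted p from 0.0728 to 0.202. Those of pool 16 (Slit2, Pik3cd and Myh2) rest in part on the library labelled lung 16D, where own-pool and control reads numbered 42538 and 1587734, against 4898720 and 1541559 in lung 16E. edgeR ended those for Aff4 (TRCN0000103586), Dctn4, Golt1b, Lrp1b, Myc, Nup133 and Sec63 (TRCN0000336301), with edgeR adjusted p from 0.0511 to 0.1248.

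Members are grouped by role below, in groups made after the members were known. Lung calls of a group stand beside 39 lower and 3 higher among all 84 members tested. Among the 631 hairpins of at least 0.5%, 20% were lower and 17.9% higher. No test was made of any group. Hairpins against the machinery of RNA processing, ribosome assembly and translation made up 9 members against 8 genes. The most depleted of all 91 was TRCN0000181192 against Eif5b, which encodes a translation initiation factor that joins the ribosomal subunits. It took 0.840%, 0.818% and 0.818% of pool 9 at day 0 and, in culture, 0.00440% at the lowest, 0.0212% at the median and 0.0445% at the highest, which is 2.73% of day 0. In lung 9A it stood at 0.0166%, and lung 9C had 0 of 4479815 reads, which allows a share of up to 6.70e-05% (the share of 3 reads). Both lung values were below every day 0 share, yet with 2 lung libraries the difference was not called (log2 difference -8.85, SE 2.44, limma adjusted p = 0.0551; -12.65 to -5.14 over the omissions). A fold fitted against a library at 0 depends on the pseudocount, so it is not read as a size.

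TRCN0000123642 against Eftud2, a GTPase of the U5 small nuclear ribonucleoprotein in the spliceosome, showed the same unevenness between lungs. Its shares were 0.488%, 0.511% and 0.541% at day 0, and in culture 0.0309% at the lowest, 0.0464% at the median and 0.0996% at the highest. Lung 9A held 0.126% and lung 9C held 2 of 4479815 reads (4.46e-05%, Wilson interval 1.22e-05% to 0.000163%), and no call was made (log2 difference -6.24, SE 3.02, limma adjusted p = 0.191; -11.01 to -1.54 over the omissions), so this difference too depends on the pseudocount. Snrpd1, a core Sm protein of spliceosomal particles, had members in 2 pools. TRCN0000123403 in pool 9 took 1.19%, 1.18% and 1.22% at day 0 and, in culture, 0.115% at the lowest, 0.180% at the median and 0.302% at the highest. Its lungs disagreed, with 2.82% in lung 9A, above every day 0 share, and 0.0626% in lung 9C, below every culture share (log2 difference -0.53, SE 1.42, limma adjusted p = 0.814). Leaving out 1 of these lungs leaves a single library, and the log2 difference is then 1.72 without lung 9C and -2.82 without lung 9A. TRCN0000295005 in pool 15 stood at 1.11%, 0.853% and 2.25% at day 0, at 0.541%, 0.152%, 0.328% and 0.140% in culture and at 0.306%, 0.463% and 1.21% in lungs, and the lung and day 0 values overlapped (log2 difference -0.23, SE 0.68, limma adjusted p = 0.828).

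TRCN0000246814 against Nup133, a scaffold subunit of the nuclear pore, was the member with the second lowest lung share relative to day 0. It took 0.938%, 0.898% and 1.17% at day 0 and 0.136%, 0.112% and 0.178% in culture. In lungs it was nearly lost from a pair of libraries, with 10 reads in lung 17A (0.000397%, Wilson interval 0.000216% to 0.000730%) and 24 in lung 17B (0.000647%, Wilson interval 0.000435% to 0.000963%), but lung 17C held 0.102%. All were below the culture shares, and the difference was called lower (log2 difference -7.60, SE 1.91, limma adjusted p = 0.0245). The call was lost without day 0 replicate A, B or C or lung replicate A or B (limma adjusted p from 0.0549 to 0.0733). The log2 difference ranged from -9.86 (without lung replicate C) to -6.30 over the omissions.

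TRCN0000009759 against Pak1ip1, a ribosome biogenesis factor that also binds the kinase PAK1, went the opposite way. Its shares were 0.638%, 0.557% and 0.734% at day 0, 0.0414%, 0.0822% and 0.118% in culture and 0.881%, 1.40% and 1.77% in lungs, so that every lung library exceeded every day 0 library while every culture library lay far below. It was called higher in lungs (log2 difference 1.22, SE 0.34, limma adjusted p = 0.0213), and the call was lost without day 0 replicate A, B or C (limma adjusted p from 0.108 to 0.120). The other hairpins against Pak1ip1 did not show that gap to the same extent: TRCN0000009760 was at 25.9% of day 0 in culture and 70.5% in lungs, and TRCN0000009758 at 74.3% and 125%.

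Other members of this group had no lung call. The hairpin against Srrm2, a large splicing-associated matrix protein, took 4.35% ± 0.108 (SD, n = 3) at day 0, 0.700% ± 0.0368 (SD, n = 3) in culture and 2.58% ± 0.690 (SD, n = 3) in lungs (log2 difference -0.41, SE 0.18, limma adjusted p = 0.104). For Bzw2, a regulator of translation start sites, the culture mean was 18.9% of day 0 and the lung mean 98.1% of day 0 (log2 difference 0.050, SE 0.29, limma adjusted p = 0.916). The hairpin against Wdr3, a factor of small ribosomal subunit assembly, had a culture mean of 19.4% of day 0. Its lung result turned on lung 10C, where it had 0 of 1946 reads, which allows a share of up to 0.154% (the share of 3 reads). With that library the log2 difference was -6.01 (limma adjusted p = 0.200), and without lung 10C it was -2.21 with limma adjusted p = 0.0288.

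Genes of the secretory pathway and of membrane traffic gave 10 members against 8 genes. Of the 10 members, 5 were lower in lungs (39 of 84 over all members). Sec63, a chaperone partner of the translocon in the endoplasmic reticulum, had members that were low in every lung. TRCN0000336302 took 3.37%, 3.01% and 3.07% at day 0, 0.765%, 0.441% and 0.733% in culture and 0.0292%, 0.331% and 0.234% in lungs, so all lung shares were below all culture shares (log2 difference -2.87, SE 0.62, limma adjusted p = 0.00952). The call was lost without day 0 replicate A, B or C (limma adjusted p from 0.0566 to 0.0604). TRCN0000336301 took 2.46%, 2.40% and 2.23% at day 0, 0.294%, 0.147% and 0.683% in culture and 0.0222%, 0.221% and 0.528% in lungs (log2 difference -2.39, SE 0.73, limma adjusted p = 0.0362), a call that was lost without day 0 replicate A, B or C or lung replicate B (limma adjusted p from 0.0912 to 0.132; log2 difference -3.01 without lung replicate C). The remaining Sec63 hairpin, TRCN0000353321, was at 54.3% of day 0 in culture and at 19.2% in lungs, in the same order.

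Srp68, a subunit of the signal recognition particle that brings nascent secretory proteins to that translocon, also had a pair of members, both in pool 16. TRCN0000317214 stood at 1.20%, 1.22% and 1.14% at day 0, at 0.152%, 0.192%, 0.233%, 0.182% and 0.327% in culture, and at 0.724% and 0.137% in the library labelled lung 16D and in lung 16E. TRCN0000349980 stood at 1.27%, 1.22% and 1.23% at day 0, at 0.156%, 0.207%, 0.312%, 0.278% and 0.360% in culture, and at 0.0400% and 0.215% in the same lungs. In each, both lung shares were below every day 0 share, but which lung was the higher differed between the hairpins, and neither was called (log2 differences -1.64 and -3.47, limma adjusted p = 0.145 and 0.0589). With lung 16E alone the log2 differences were -2.72 for the first and -2.13 for the other. The remaining hairpin, TRCN0000349979, was at 73.1% of day 0 in culture and 206% in lungs, which became 46.2% with lung 16E alone.

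TRCN0000305016 against Golt1b, a Golgi transport protein, was among the 10 most depleted members in culture. It took 0.695%, 0.564% and 0.818% at day 0, 0.0319%, 0.0803% and 0.114% in culture and 0.0892%, 0.291% and 0.146% in lungs, lower than day 0 in all (log2 difference -1.48, SE 0.45, limma adjusted p = 0.0432), and this call was lost without day 0 replicate A, B or C or lung replicate A or C (limma adjusted p from 0.114 to 0.154). TRCN0000295651 against Dctn4, a subunit of the dynactin complex that works with the dynein motor, was among the most abundant members at day 0. It stood at 4.93%, 5.26% and 4.85% at day 0, 0.999%, 0.791% and 1.25% in culture and 0.931%, 1.32% and 2.70% in lungs (log2 difference -1.09, SE 0.33, limma adjusted p = 0.0422), with the call lost without day 0 replicate A, B or C or lung replicate B (limma adjusted p from 0.0615 to 0.185). TRCN0000089374 against the endosomal GTPase Rab14 had lung shares of 3.09%, 0.395% and 1.06%, around day 0 shares of 1.12%, 1.28% and 1.30% and above every culture share (0.229%, 0.248% and 0.258%). Its log2 difference was near 0 (log2 difference -0.0047, SE 0.79, limma adjusted p = 0.997; -0.71 to 0.89 over the omissions).

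In the rest of the group, the hairpin against Mall, a membrane raft protein related to MAL, went from 2.54% ± 0.0399 (SD, n = 3) at day 0 to 0.564% ± 0.112 (SD, n = 3) in culture and 0.856% ± 0.341 (SD, n = 3) in lungs, and was lower in lungs under every omission (log2 difference -1.47, SE 0.32, limma adjusted p = 0.0104; largest adjusted p 0.0411). The hairpin against Vcp, an ATPase that extracts ubiquitinated proteins, had 1.31% ± 0.0598 (SD, n = 3) at day 0, 0.215% ± 0.0772 (SD, n = 6) in culture and 0.440% ± 0.518 (SD, n = 2) in lungs, with no call (log2 difference -1.44, SE 0.81, limma adjusted p = 0.246; -2.72 to -0.21 over the omissions). It was at 61.5% of day 0 in lung 9A and at 5.61% in lung 9C. That against Calu, a calcium-binding protein of the secretory pathway, had a culture mean of 14.7% and a lung mean of 15.5% of day 0 (log2 difference -2.02, SE 0.89, limma adjusted p = 0.112; -2.61 to -1.21 over the omissions). The lung mean was 22.8% of day 0 without lung 14A (limma adjusted p = 0.0116) and 9.18% without lung 14C (limma adjusted p = 0.0166).

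Regulators of transcription and chromatin gave 10 members against 7 genes. Of the 10 members, 6 were lower in lungs (39 of 84 over all members). TRCN0000304681 against Pbrm1, the polybromo subunit of a SWI/SNF chromatin remodelling complex, combined a high day 0 share with a low share in both later arms. It took 4.73%, 4.87% and 4.51% at day 0, 0.402%, 0.204% and 0.415% in culture and 0.112%, 0.102% and 0.350% in lungs. The lungs were lower than day 0 under every omission (log2 difference -4.23, SE 0.45, limma adjusted p = 0.00106; largest adjusted p 0.00702). The other Pbrm1 member of the same pool, TRCN0000304680, took 1.54%, 1.39% and 1.69% at day 0, 0.257%, 0.358% and 0.445% in culture and 0.693%, 0.488% and 1.30% in lungs, where all lung shares lay between the culture and the day 0 shares and no call was made (log2 difference -0.35, SE 0.40, limma adjusted p = 0.532). A hairpin against Pbrm1 in pool 12, TRCN0000081822, was at 224% of day 0 in culture, and one in pool 11, TRCN0000081820, at 85.4%.

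Klf5, a Krüppel-like transcription factor of epithelial cells, had both members in pool 4, and both were lower in lungs with little spread. TRCN0000055286 took 1.62%, 2.06% and 1.52% at day 0, 0.322%, 0.336% and 0.403% in culture and 0.302%, 0.299% and 0.281% in lungs (log2 difference -2.35, SE 0.21, limma adjusted p = 0.000951; largest adjusted p with a library left out 0.0108). TRCN0000055287 took 3.44%, 3.25% and 3.44% at day 0, 0.838%, 0.694% and 0.711% in culture and 0.929%, 1.24% and 0.973% in lungs (log2 difference -1.502, SE 0.15, limma adjusted p = 0.00134; largest adjusted p 0.0119). The lungs of the first lay below its cultures and the lungs of the other lay above. A further hairpin, TRCN0000055285, was at 66.6% of day 0 in culture and 60.3% in lungs, and TRCN0000055284, which had a day 0 mean of 0.111%, at 21.1% and 373%.

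Aff4, a scaffold of the super elongation complex that releases paused RNA polymerase, had members in pools 11 and 12. TRCN0000103587 took 3.59%, 3.73% and 3.91% at day 0, 0.378%, 0.299% and 0.262% in culture and 0.633%, 0.0523% and 0.299% in lungs (log2 difference -3.95, SE 0.94, limma adjusted p = 0.0248), a call lost without day 0 replicate A, B or C (limma adjusted p from 0.0756 to 0.0769; log2 difference -2.77 without lung replicate B). TRCN0000103586 took 2.39%, 2.37% and 2.24% at day 0, 0.617%, 0.425% and 0.338% in culture and 0.329%, 0.142% and 1.25% in lungs, of which lung 12C was the high one (log2 difference -2.39, SE 0.66, limma adjusted p = 0.0245). That call was lost without day 0 replicate B or C or lung replicate A (limma adjusted p from 0.0613 to 0.0745). The log2 difference ranged from -3.16 (without lung replicate C) to -1.65 over the omissions. The remaining pair of Aff4 hairpins was at 113% (TRCN0000103585) and 48.4% (TRCN0000103588) of day 0 in culture, and both had lung means above day 0.

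TRCN0000234923 against Myc, the growth-promoting transcription factor, took 0.812%, 0.886% and 0.527% at day 0, 0.0940%, 0.104%, 0.0907% and 0.0238% in culture and 0.0964%, 0.00461% and 0.0601% in lungs. Lung 15C was the lowest of them, and the lungs were lower than day 0 (log2 difference -3.61, SE 1.00, limma adjusted p = 0.0315), a call lost without day 0 replicate B, C or D (limma adjusted p from 0.0626 to 0.116; log2 difference -2.32 without lung replicate C). Another Myc hairpin of sufficient day 0 share, TRCN0000054854 in pool 6, was at 118% of day 0 in culture and 62.4% in lungs. TRCN0000124874 against Whsc2, now named Nelfa, a subunit of the negative elongation factor that pauses RNA polymerase, took 1.30%, 1.39% and 1.41% at day 0 and, in culture, 0.0142% at the lowest, 0.0706% at the median and 0.306% at the highest. Its lungs held 0.442%, 0.210% and 0.103% (log2 difference -1.20, SE 0.44, limma adjusted p = 0.0836), the last value resting on 2 of 1946 reads in lung 10C, and the log2 difference without lung 10C was -1.56 with limma adjusted p = 0.0147. Of the other Whsc2 hairpins, TRCN0000124876 was at 99.8% of day 0 in culture and 277% in lungs, while TRCN0000124875 was at 47.0% and 10.2%. Without lung 10C these lung values were 31.2% and 13.6%.

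Single members stood for Nfyb, a subunit of the CCAAT-binding factor NF-Y, and Myst4, now named Kat6b, a histone acetyltransferase. The Nfyb hairpin had a culture mean of 12.8% of day 0. Its lungs were 10 reads (0.0235%) in the library labelled lung 16D and 0.380% in lung 16E, with no call (log2 difference -2.70, SE 1.45, limma adjusted p = 0.212; -4.84 to -0.57 over the omissions), and the log2 difference without the library labelled lung 16D was -0.57. The Myst4 hairpin went from 4.26% ± 0.183 (SD, n = 3) at day 0 to 0.909% ± 0.161 (SD, n = 3) in culture, with 3.72% ± 2.79 (SD, n = 3) in lungs, where the lung shares overlapped the day 0 shares (log2 difference 0.21, SE 0.64, limma adjusted p = 0.831; -0.46 to 0.64 over the omissions).

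DNA replication, repair and the ubiquitin pathway gave 7 members against 5 genes. Of the 7 members, 4 were lower in lungs (39 of 84 over all members). Timeless, which protects the replication fork, had a member in each of pools 8 and 15. TRCN0000097985 took 1.87%, 1.86% and 2.03% at day 0, 0.316%, 0.253% and 0.123% in culture and 0.478%, 0.277% and 0.495% in lungs, lower than day 0 under every omission (log2 difference -2.05, SE 0.32, limma adjusted p = 0.00231; largest adjusted p 0.0177). TRCN0000234047 took 2.01%, 2.19% and 1.14% at day 0, 0.112%, 0.847%, 0.288% and 0.371% in culture and 0.833%, 0.567% and 1.45% in lungs, and the lungs overlapped day 0 (log2 difference 0.025, SE 0.40, limma adjusted p = 0.973). For the latter the sign of the log2 difference turned with the scaling (-0.96 with own-pool totals). No test of the difference between these hairpins was made, since they lie in different pools and lungs.

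Usp34, a deubiquitinase that acts in Wnt signalling, had 4 hairpins in pool 15, of which 2 were members. TRCN0000234169 took 0.839%, 1.30% and 0.405% at day 0, 0.0264%, 0.0724%, 0.0422% and 0.0634% in culture and 0.270%, 0.0284% and 0.224% in lungs, with no call (log2 difference -1.68, SE 0.87, limma adjusted p = 0.176; -2.15 to -0.70 over the omissions). TRCN0000257239 took 1.93%, 2.51% and 1.03% at day 0, 0.155%, 0.860%, 0.430% and 0.194% in culture and 0.421%, 0.0860% and 0.0728% in lungs (log2 difference -2.64, SE 0.68, limma adjusted p = 0.0249), and its call was lost without day 0 replicate B or C (limma adjusted p from 0.0941 to 0.112; log2 difference -3.33 without lung replicate B). The others, TRCN0000234170 and TRCN0000234171, were at 128% and 181% of day 0 in culture and at 227% and 219% in lungs. Ube2m, the conjugating enzyme for NEDD8, had a member that was lower in lungs (mean 39.2% of day 0, log2 difference -0.996, SE 0.24, limma adjusted p = 0.00817), a call lost without day 0 replicate A or B (limma adjusted p from 0.0577 to 0.0695). Rnf4, a ubiquitin ligase that reads SUMO chains, had one at 12.0% of day 0 in culture and 22.5% in lungs (log2 difference -1.79, SE 0.57, limma adjusted p = 0.0366), lost without day 0 replicate A, B or C or lung replicate A or C (limma adjusted p from 0.0555 to 0.127; log2 difference -2.47 without lung replicate B). The hairpin against Prkdc, the catalytic subunit of DNA-dependent protein kinase, took 3.43% ± 0.187 (SD, n = 3) at day 0 and 0.712% ± 0.222 (SD, n = 5) in culture. Its lungs held 5.60% and 1.38% in the library labelled lung 16D and in lung 16E, on either side of the day 0 mean (log2 difference -0.034, SE 0.52, limma adjusted p = 0.973), and with lung 16E alone the log2 difference was -0.91 and with the library labelled lung 16D alone it was 0.85.

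Signalling proteins, with the actin-binding Coro1c placed among them, gave 14 members against 12 genes. In lungs 6 were lower and 1, against Coro1c, was higher (39 and 3 of 84 over all members). TRCN0000313282 against Coro1c, an actin-binding coronin, had the highest lung share relative to day 0 of all members. It took 1.501%, 1.65% and 1.31% at day 0, 0.158%, 0.229% and 0.414% in culture and 4.86%, 6.61% and 3.86% in lungs. Each lung library was thus above the highest day 0 share, and each culture library below the lowest (log2 difference 2.03, SE 0.24, limma adjusted p = 0.00116; largest adjusted p with a library left out 0.00702). The other Coro1c hairpins did not share this pattern: TRCN0000313283, in the same pool, was at 64.0% of day 0 in culture and 52.4% in lungs, while TRCN0000090985 was at 442% and 130% and TRCN0000090983 at 63.8% and 96.8%.

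In the Wnt pathway, beta-catenin (Ctnnb1) is the transcriptional coactivator and Apc the scaffold that marks it for degradation. The Ctnnb1 member, TRCN0000012689 in pool 2, took 1.06%, 1.23% and 1.21% at day 0, 0.140%, 0.114% and 0.142% in culture and 0.112%, 0.0828% and 0.146% in lungs. It was lower in lungs under every omission (log2 difference -3.03, SE 0.31, limma adjusted p = 0.000314; largest adjusted p 0.00721). The other Ctnnb1 hairpins, in pool 1, were at 61.5% (TRCN0000012690) and 36.9% (TRCN0000012692) of day 0 in culture and at 10.5% and 12.5% in lungs, beside 9.74% for the member. The Apc member, TRCN0000042533, took 0.886%, 0.937% and 1.000% at day 0, 0.206%, 0.234% and 0.157% in culture and 0.111%, 0.0983% and 0.122% in lungs (log2 difference -2.01, SE 0.26, limma adjusted p = 0.00272; largest adjusted p 0.0184). All its lung shares lay below all its culture shares, whereas the other Apc hairpins were at 79.0%, 263% and 99.6% of day 0 in culture.

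The class I phosphoinositide 3-kinase catalytic subunits were targeted by members in 3 pools. TRCN0000361415 against Pik3cd in pool 16 took 5.14%, 5.53% and 5.05% at day 0, 1.25%, 0.971%, 1.02%, 1.32% and 1.11% in culture, and 1.32% and 1.98% in the library labelled lung 16D and in lung 16E (log2 difference -1.43, SE 0.30, limma adjusted p = 0.0194), a call lost without day 0 replicate A (limma adjusted p = 0.0695). Without the library labelled lung 16D the log2 difference was -1.004. TRCN0000024646 in pool 5 took 4.66%, 4.32% and 4.82% at day 0, 0.780%, 1.06% and 1.32% in culture and 2.70%, 1.66% and 1.66% in lungs, lower than every day 0 share yet not called (log2 difference -0.68, SE 0.33, limma adjusted p = 0.157). The log2 difference reached -1.07 without lung replicate A, with limma adjusted p = 0.000297. In the same pool TRCN0000024648 against Pik3cd was at 330% of day 0 in culture. The Pik3ca hairpin of pool 3 went from 0.757% ± 0.0827 (SD, n = 2) at day 0 to 0.179% ± 0.0317 (SD, n = 3) in culture.

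Grb10, an adaptor that binds the insulin receptor and restrains its signal, had both members in pool 7. TRCN0000109915 took 2.30%, 2.29% and 2.13% at day 0, 0.450%, 0.649% and 0.435% in culture and 1.73%, 1.05% and 0.865% in lungs, all below day 0 but not called (log2 difference -0.58, SE 0.32, limma adjusted p = 0.182). TRCN0000109916 took 1.37%, 1.45% and 1.74% at day 0, 0.177%, 0.580% and 0.295% in culture and 0.569%, 0.249% and 0.332% in lungs (log2 difference -1.70, SE 0.43, limma adjusted p = 0.0116), and that call was lost without day 0 replicate B or C (limma adjusted p from 0.0541 to 0.0657). The dual-specificity phosphatases Dusp4 and Dusp5 dephosphorylate MAP kinases, and a member against each was lower in lungs: Dusp4 at 29.1% of day 0 (log2 difference -1.76, SE 0.44, limma adjusted p = 0.0285), lost without day 0 replicate A, B or C (limma adjusted p from 0.0941 to 0.0968), and Dusp5 at 19.7% (log2 difference -2.68, SE 0.72, limma adjusted p = 0.0242), lost without day 0 replicate A, B or C or lung replicate B or C (limma adjusted p from 0.0605 to 0.0839; log2 difference -3.56 without lung replicate A). Other Dusp4 hairpins of at least 0.5% were at 146% and 274% of day 0 in culture and at 89.2% and 42.6% in lungs. The other Dusp5 hairpins were at 125% and 178% in pool 8 and 74.1% in pool 10 in culture, and at 249%, 776% and 145% in lungs, the last being 211% without lung 10C.

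Egfr, the epidermal growth factor receptor, had a member at 17.7% of day 0 in culture and 43.8% in lungs, with lung shares of 0.0137%, 0.981% and 1.03% and no call (log2 difference -0.97, SE 1.07, limma adjusted p = 0.515; -1.67 to 0.34 over the omissions). The scaffold Iqgap1 had one at 20.4% in culture and 83.0% in lungs (log2 difference -0.010, SE 0.25, limma adjusted p = 0.979), and the stress-response gene Ndrg1 one at 19.9% and 30.9% (log2 difference -0.75, SE 0.45, limma adjusted p = 0.242). For Tgfbr2, the type II TGF-beta receptor, the pool 3 member had 0.567% ± 0.0379 (SD, n = 2) at day 0 and 0.0908% ± 0.0330 (SD, n = 3) in culture.

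Adhesion proteins, matrix, proteases and guidance factors gave 13 members against 12 genes. Of the 12 members with lung values, 6 were lower in lungs (39 of 84 over all members). TRCN0000328112 against Slit2, a secreted ligand of Robo receptors, had the highest day 0 share of all members. It took 5.86%, 5.87% and 5.28% at day 0, 0.830%, 0.654%, 0.542%, 0.328% and 0.409% in culture and 1.22% and 0.840% in lungs, and it was lower in lungs (log2 difference -2.21, SE 0.20, limma adjusted p = 0.00134), with a largest adjusted p of 0.0108 over the omissions. The other Slit2 member, TRCN0000328094, took 1.70%, 2.12% and 2.18% at day 0 and 0.285%, 0.247%, 0.354%, 0.401% and 0.683% in culture but 1.98% and 2.09% in lungs, inside the day 0 range (log2 difference 0.30, SE 0.22, limma adjusted p = 0.345). With lung 16E alone the log2 differences were -2.35 for the first and 0.47 for the other. The remaining Slit2 hairpin, TRCN0000328111, had a day 0 mean of 0.399%. It was at 120% of day 0 in culture and 279% in lungs, the latter resting in part on the library labelled lung 16D.

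The receptor for urokinase, Plaur, had a member with 1.92% ± 0.189 (SD, n = 3) at day 0, 0.253% ± 0.0184 (SD, n = 3) in culture and 0.0764%, 0.0312% and 0.277% in lungs. It was lower in lungs (log2 difference -3.85, SE 0.67, limma adjusted p = 0.00305), with a largest limma adjusted p of 0.0180 over the omissions. Its log2 difference ranged from -4.67 (without lung replicate C) to -3.23 over them. The first pair of lung values rests on 31 reads of 40555 in lung 6A and 79 of 252958 in lung 6B, and the highest on 5078 of 1834713 in lung 6C. Pxdn, a peroxidase that crosslinks basement membrane collagen, had one with lung shares of 0.156%, 0.144% and 0.142%, all below its culture shares of 0.383%, 0.435% and 0.496% and its day 0 shares of 1.77%, 1.78% and 2.00% (log2 difference -3.45, SE 0.28, limma adjusted p = 0.000138; largest adjusted p 0.00233). Another Pxdn hairpin of that pool, TRCN0000216702, was at 130% of day 0 in culture and 144% in lungs. The membrane proteases St14 (matriptase) and Adam8 had members at 30.4% and 12.1% of day 0 in lungs. Both were called lower, St14 with log2 difference -1.27, SE 0.29, limma adjusted p = 0.0182 and Adam8 with log2 difference -2.37, SE 0.79, limma adjusted p = 0.0478. The St14 call was lost without day 0 replicate C (limma adjusted p = 0.0628). The Adam8 call was lost without day 0 replicate A, B or C or lung replicate B (limma adjusted p from 0.123 to 0.159). Its log2 difference ranged from -3.12 (without lung replicate C) to -1.77 over the omissions. Negr1, a neuronal adhesion protein, was lower as well (log2 difference -1.52, SE 0.36, limma adjusted p = 0.0245), lost without day 0 replicate A, B or C or lung replicate A (limma adjusted p from 0.0640 to 0.1003), and its log2 difference without lung 10C was -1.25 with limma adjusted p = 0.0221.

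The remaining adhesion and matrix members were not called. Those against the laminin chain Lama3, the collagen chain Col5a1, the integrin Itga2, the cadherin Celsr2 and the synaptic adhesion protein Lrrtm4 had culture means of 21.8%, 17.0%, 14.5%, 20.4% and 20.3% of day 0, and lung means of 51.0%, 67.6%, 29.4%, 29.0% and 66.5%. The Lama3 lung mean was 31.3% of day 0 without lung 15B (log2 difference -0.71) and 67.4% without lung 15C (log2 difference 0.28). In pool 14, which holds the Itga2 and Col5a1 members, the share and the TMM scale gave different readings: Itga2 stood at 29.4% of day 0 as a share and at a log2 difference of -0.035 after TMM, and Col5a1 at 67.6% as a share and, after TMM, with log2 difference 0.82, SE 1.23, limma adjusted p = 0.638. These values turned on lung 14A, without which the log2 differences were -1.03 for Itga2 and -0.52 for Col5a1. Without lung 10C, Celsr2 was at 39.5% of day 0 with log2 difference -0.74 with limma adjusted p = 0.0114. The hairpin against Hmcn1, an extracellular matrix protein, lay near the culture limit with shares of 1.72% and 1.78% at day 0 and 0.426%, 0.222% and 0.624% in culture, and has no lung values.

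The chemokines Ccl20 and Cxcl3 had 1 member each. TRCN0000067707 against Ccl20, the ligand of CCR6, took 1.000%, 0.926% and 0.772% at day 0, 0.104%, 0.120% and 0.247% in culture and 2.65%, 0.774% and 0.367% in lungs, which spread over a wide range above every culture share (log2 difference 0.39, SE 0.61, limma adjusted p = 0.642; -0.28 to 1.12 over the omissions). Without lung 7A its log2 difference was -0.28. Other Ccl20 hairpins were at 135% (TRCN0000067706) and 143% (TRCN0000353952) of day 0 in culture. The Cxcl3 member, against a neutrophil attractant, had 1.89% ± 0.0683 (SD, n = 3) at day 0, 0.221% ± 0.106 (SD, n = 6) in culture and 0.519% ± 0.0111 (SD, n = 2) in lungs (log2 difference -0.88, SE 0.32, limma adjusted p = 0.108). As a share it was at 27.0% of day 0 in lung 9A and at 27.8% in lung 9C. After TMM the lungs differed, with a log2 difference of -1.40 for lung 9A alone and -0.41 for lung 9C alone.

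Metabolic and mitochondrial genes gave 7 members, 2 lower and 1 higher in lungs (39 and 3 of 84 over all members). The hairpin against Upp1, which splits uridine, took 2.72%, 2.66% and 2.47% at day 0 and, in culture, 0.382% at the lowest, 0.521% at the median and 0.853% at the highest. Lung 9A and lung 9C held 3.78% and 2.42%. The share in lung 9C lay just below the day 0 values, so the groups overlapped as shares, while the TMM scale called it higher (log2 difference 1.20, SE 0.14, limma adjusted p = 0.00538; largest adjusted p 0.0464). The call depended on that scale, since the log2 difference was 0.21 with own-pool totals (limma adjusted p = 0.533) and 0.37 with control hairpins (limma adjusted p = 0.356). Members against the transporter Slc16a4 and the ecto-5'-nucleotidase Nt5e were lower in lungs. Slc16a4 stood at 21.7% of day 0 (log2 difference -1.99, SE 0.46, limma adjusted p = 0.00730; largest adjusted p 0.0390) and Nt5e at 26.4% (log2 difference -1.88, SE 0.45, limma adjusted p = 0.0152), the latter lost without day 0 replicate A, B or C (limma adjusted p from 0.0690 to 0.0714).

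The other 4 metabolic members were not called. St6gal2, a sialyltransferase, was at 18.3% of day 0 in culture and 72.0% in lungs, and Tfb2m, a mitochondrial transcription factor, at 23.0% and 74.6%. The Tfb2m lungs held 3.07%, 0.981% and 1.09%, and without lung 6A, the highest, their mean was 45.0% of day 0 (log2 difference -0.62, limma adjusted p = 0.0116). The hairpin against Ndufb2, a subunit of respiratory complex I, was at 11.1% in culture, and its lungs ranged from 4 reads (0.000159%) in lung 17A to 0.511% (log2 difference -3.73, SE 2.65, limma adjusted p = 0.316; -5.76 to -0.27 over the omissions). Without lung 17A the log2 difference was -0.27, at 59.9% of day 0.

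Genes best known from muscle, cilia and nerve cells gave 8 members, of which 6 have lung values and 3 were lower (39 of 84 over all members). TRCN0000423824 against Myh2, a skeletal muscle myosin, took 0.784%, 0.586% and 0.662% at day 0, 0.0736%, 0.253%, 0.183%, 0.0655% and 0.123% in culture, and 0.0188% and 0.0565% in the library labelled lung 16D and in lung 16E. Both lungs were below every culture share (log2 difference -4.09, SE 0.94, limma adjusted p = 0.0248), the first of them resting on 8 reads (Wilson interval 0.00953% to 0.0371%). This call was lost without day 0 replicate A, D or E (limma adjusted p from 0.0984 to 0.133; log2 difference -5.02 without lung replicate E), and without the library labelled lung 16D the log2 difference was -3.17. TRCN0000362964 against the sarcomere protein Ttn took 1.28%, 1.58% and 1.55% at day 0 and 0.939%, 0.460%, 0.158%, 0.1248% and 0.153% in culture, where the first library was the only one of any member above 50% of the day 0 mean. Its lungs held 0.0588% and 0.882% (log2 difference -2.42, SE 1.24, limma adjusted p = 0.195; -4.50 to -0.33 over the omissions), and with lung 16E alone the log2 difference was -0.33.

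Dnahc11, now named Dnah11, a dynein of motile cilia, was lower in lungs (log2 difference -0.84, SE 0.12, limma adjusted p = 0.00357), lost without day 0 replicate A or B (limma adjusted p from 0.0991 to 0.122), and so was Alms1, a centrosomal protein (log2 difference -1.55, SE 0.34, limma adjusted p = 0.0316), lost without day 0 replicate A, B or C (limma adjusted p from 0.103 to 0.123). Members against the calcium release channel Ryr2 and the potassium channel partner Dpp6 were at 19.5% and 16.3% of day 0 in culture and at 38.9% and 23.6% in lungs, with no call. The Dpp6 lungs held 0.152%, 0.910% and 0.0395%, and without lung 4B, the highest, their mean was 6.15% of day 0 (log2 difference -4.13, limma adjusted p = 0.00379). The Ryr2 log2 difference was -1.14 without lung 6B (limma adjusted p = 0.0149) and -0.59 without lung 6A (limma adjusted p = 0.0259). Neb, a thin filament protein, and Trim63, a muscle ubiquitin ligase, lie in pool 3 and were at 17.0% and 12.0% of day 0 in culture.

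The 11 further members were placed in none of these groups, although another placement was possible for some, such as the focal adhesion protein Tns4. Sipa1l2, a GTPase-activating protein for Rap, had a pair in pool 17. TRCN0000253359 took 3.51%, 3.26% and 3.48% at day 0, 0.544%, 0.590% and 0.440% in culture and 0.238%, 0.182% and 1.24% in lungs (log2 difference -2.52, SE 0.63, limma adjusted p = 0.0242), lost without day 0 replicate A, B or C or lung replicate A (limma adjusted p from 0.0545 to 0.0742; log2 difference -3.14 without lung replicate C). TRCN0000253357 took 0.684%, 0.599% and 0.728% at day 0, 0.106%, 0.140% and 0.241% in culture and 0.251%, 0.424% and 0.529% in lungs, with no call (log2 difference -0.14, SE 0.35, limma adjusted p = 0.784), and its log2 difference was 0.06 without lung 17A. A further hairpin, TRCN0000253358, was at 36.6% of day 0 in culture and 35.5% in lungs. TRCN0000119610 against Lrp1b, a large receptor of the low density lipoprotein family, took 0.512%, 0.595% and 0.675% at day 0, 0.0333%, 0.0449% and 0.0716% in culture and 0.333%, 0.0366% and 0.0897% in lungs. That call stood at the limit (log2 difference -2.15, SE 0.71, limma adjusted p = 0.0496). It was lost without day 0 replicate A, B or C or lung replicate C (limma adjusted p from 0.127 to 0.223). The log2 difference ranged from -3.01 (without lung replicate A) to -1.41 over the omissions.

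TRCN0000121428 against Tns4, a tensin of focal adhesions, took 1.90%, 1.96% and 2.12% at day 0, 0.5257%, 0.506% and 0.342% in culture and 1.63%, 2.60% and 3.54% in lungs, above all cultures and overlapping day 0 (log2 difference 0.51, SE 0.29, limma adjusted p = 0.218). The Pdcd6 member, against a calcium-binding protein, had 0.793% ± 0.113 (SD, n = 3) at day 0, 0.138% ± 0.0509 (SD, n = 3) in culture and 0.115% ± 0.0298 (SD, n = 3) in lungs, and was lower under every omission (log2 difference -2.44, SE 0.37, limma adjusted p = 0.000847; largest adjusted p 0.00943). Members against the RNA-binding protein Rbms1 (log2 difference -1.46, SE 0.37, limma adjusted p = 0.0286), C77370, now named Nexmif (log2 difference -1.28, SE 0.33, limma adjusted p = 0.0257), and Ccdc63 (log2 difference -3.66, SE 1.13, limma adjusted p = 0.0452) were lower too. The Rbms1 log2 difference without lung 10C was -1.70 with limma adjusted p = 0.000865. The Rbms1 call was lost without day 0 replicate A, B or C (limma adjusted p from 0.0685 to 0.122). So was the C77370 call (limma adjusted p from 0.101 to 0.139). The Ccdc63 call was lost without day 0 replicate A, B or C or lung replicate B or C (limma adjusted p from 0.0770 to 0.142). The Ccdc63 log2 difference ranged from -4.79 (without lung replicate A) to -2.77 over the omissions. The hairpin against 2810432D09Rik, now named Rpp25l, was at 18.2% of day 0 in culture and spread from 0.0526% to 1.13% in lungs with no call, while without lung 19B the log2 difference was -2.85 with limma adjusted p = 0.00126. Csmd3 and Rsbn1l in pool 3 were at 17.2% and 16.8% of day 0 in culture.

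The number of members per gene was small. Each of 67 genes had 1 member and 12 genes had 2, and no gene had more, with 3 or 4 hairpins against each of these genes in the library. The 12 were Aff4, Grb10, Klf5, Pbrm1, Pik3cd, Sec63, Sipa1l2, Slit2, Snrpd1, Srp68, Timeless and Usp34. In 8 of them both members were in 1 pool and so shared their libraries, and in 4 they were in different pools. Both members were lower in lungs for 3 genes (Aff4, Klf5 and Sec63), 1 of the 2 for 7 genes, and neither for Snrpd1 and Srp68. For 3 genes, Slit2, Snrpd1 and Timeless, the members were all the hairpins with a day 0 share of at least 0.5%.

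The other hairpins against the members' genes were set beside those against genes without a member. The 79 genes had 281 hairpins: the 91 members, 133 others with a day 0 share of at least 0.5%, 54 below 0.5% and 3 without culture values. Of the 133, 29 (21.8%) were at or below 50% of day 0 in culture and 45 (33.8%) were above day 0, with a median of 75.8%. Among 444 such hairpins against genes without a member, 112 (25.2%) were at or below 50% and 181 (40.8%) above day 0, with a median of 85.0%. Neither set contains a member by construction, so both are shifted upward relative to all hairpins. Of the genes with members, 36 had another hairpin whose culture mean exceeded day 0, among them Pik3cd, Usp34, Coro1c, Egfr and Apc. For 5 genes (Eif5b, Ndufb2, Nup133, Pdcd6 and Vcp) the member was the only hairpin of at least 0.5%, so the comparison within the gene could not be made at this day 0 share.

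Gene lists were set beside the 13.6% of hairpins that were members. Of 25 hairpins of at least 0.5% against 12 genes of the core cell machinery (translation, splicing, nuclear pore, ribosome and small RNA genes, Timeless and Dctn4), 8 against 7 genes were members (32%), and the median culture share of the 25 was 54.9% of day 0, beside 72.5% over all 668. Of 13 against transcription and chromatin genes (Aff2, Aff4, Myst4, Klf5 and Arntl2), 5 were members (38.5%). No member was found among 8 hairpins against the growth-restraining genes Cdkn1b, Cdkn2a, Sfn, Vgll4 and Fat1, whose median was 195% of day 0 with 6 of 8 above day 0, nor among 6 against Il1a and Nfkbiz. One member each came from 7 hairpins of the MAPK pathway (Dusp4), 4 of Wnt and activin signalling (Ctnnb1), 11 of membrane traffic (Dctn4), 13 of ion channels (Ryr2) and 8 against genes of other tissues (Ccdc63). All of these lists are small, no test was made of them, and they were drawn up with earlier results in view.

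A list of 20 widely essential genes, added after the members were known, had 39 hairpins of at least 0.5%. Of these, 9 against 7 genes were members (23.1%), the median was 62.6% of day 0 and 5 were above day 0. Hairpins against the same essential gene spanned a wide range: for Sf3b1 35.7% to 74.0% of day 0, for Wdr3 19.4% to 83.7%, and for Pak1ip1 12.5% to 74.3%, while the single Ruvbl1 hairpin of that abundance was at 217%.

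Lungs and culture both ran for 28 days from the same cells. The lung mean was above the culture mean in 64 of 84 members and below it in 20, with a median ratio of 1.78. Over the 631 hairpins of at least 0.5%, the lung mean was above the culture mean in 307 (48.7%), with a median ratio of 0.966. Since low culture values chose the members, a ratio above 1 is a description and carries no test. All lung shares lay above all culture shares in 25 members (19.8% of the 631 hairpins of at least 0.5% did so), and all lay below in 6 (26.1% of the 631), with 53 overlapping. Coro1c (19.1 times) and Pak1ip1 (16.8 times) had the highest ratios among the 25, which also held Ccl20, Rab14, Upp1, Tns4, Bzw2 and both Slit2 members. The 6 below were the hairpins against Apc, Pxdn, Nup133, Myh2, Klf5 (TRCN0000055286) and Sec63 (TRCN0000336302), at 1.20 to 4.14 times less than culture.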

How the data were processed

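The deposited tables hold, per library, a normalised signal for each hairpin, made by the authors; the submitters' processing notes name BWA 0.5.9, and the scaling is not given in the sources used here. All 27241 values (100%) were whole multiples of the smallest value of their library within a tolerance of 0.01 reads, so reads were recovered from them; absent hairpins were set to 0 and technical repeats were summed. Of 158 samples, 10 had no values, 4 from pool 3 (1 at day 0, 3 from lungs) and 6 from pool 13 (3 cultures, 3 lungs). A culture named for 2 pools counted as a library of both, and control hairpins were left out of shares.

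The members, the gene lists and the rules for naming were chosen with earlier results of these data known. The deposited unit was a signal, so limma 3.58.1 (R 4.3.3; trend, robust) on log2(CPM + 1) was the main test and edgeR 4.0.16 on recovered reads an alternative, as planned for that case. CPM used TMM factors over a pool's own targeting hairpins. Each pool was fitted on its day 0 and lung libraries, keeping hairpins with 10 reads or more on average, and Benjamini-Hochberg adjustment ran over 891 hairpins of 17 pools (threshold 0.05). Own-pool totals, control hairpins, DESeq2 1.42.0 size factors, the deposited values, other thresholds and single omissions were tried as well. The log2(CPM + 1) scale understates changes of rare hairpins.

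Values in each library (lowest, median and highest where there are over 5) are given for members of genes with 2 members, the 10 lowest in culture relative to day 0, the 5 highest at day 0, the 5 highest and 5 lowest in lungs relative to day 0, and those at the culture limit. Other members are named to account for them, except 1 that is not reported here, and where any of their libraries are given singly (among them Ctnnb1, Apc, Pxdn, Upp1, Egfr, Prkdc, Nfyb, Dpp6 and Tfb2m) this was chosen after their values were seen. Groups by role were also made after the members were known. Gene symbols are those of the files, and current symbols come from RefSeq's table of GRCm38.p6, which matched 86 members by accession and 5 by symbol.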

Additional observations from a re-analysis of the deposited data

Results flagged for a closer look

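In 29 members measured in 4 to 6 culture libraries, a single library stood apart from the others by Dixon's criterion for 4 hairpins; chance gives about 1 in 20. Culture 8/9C was high for the hairpin against Cxcl3, at 0.434% with the next at 0.196%, and for the hairpin against Upp1, at 0.853% with the next at 0.549%. Culture 9/10B was high for the hairpin against Whsc2, at 0.306% with the next at 0.114%. Culture 15D, the only library of pool 15 grown alone, was low for the hairpin against Myc, at 0.0238% with the next at 0.0907%. All 4 values lay below every day 0 share of their hairpin.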

How the results depend on the processing

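The 91 members became 232 with a limit of 50% of day 0 in culture, 18 with 12.5%, and 35 with TMM-scaled values. Members lower in lungs numbered 15 to 44 when each replicate letter was left out of all pools at once (39 with all), with the low counts coming from day 0 replicates A (16), B (15) and C (17); the cause was not tested. The median log2 difference of all hairpins moved from -0.13 with TMM to -0.73 with own-pool totals, -0.57 with control hairpins, -0.06 with DESeq2 size factors and -0.82 with the deposited values. Relative to that, members lower in lungs numbered 39, 47, 26, 39 and 33, and all calls split into 131 higher and 170 lower with TMM, 83 and 257 with totals, and 78 and 178 with the deposited values. Without lung 10C and the library labelled lung 16D, 47 members were lower, 7 of them in pool 16, where 1 lung library remained.

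Letters were not taken to pair day 0 and lungs across the pools: 20 of 49 same-letter pairs correlated above 0.1, in 3 of 17 pools all pairs did, and 16 of 49 lung libraries correlated best with the day 0 library of their letter. A replicate block gave 27 members lower, 26 of them among the 39, and 1 higher. In pools 4, 7 and 18, where all pairs correlated above 0.1, the 7 calls were also made with the block. Elsewhere 2 higher and 13 lower calls were not made with it: higher for Upp1 (limma adjusted p = 0.0812) and Pak1ip1 (0.0584), and lower, with limma adjusted p from 0.0528 to 0.258, for Adam8, Alms1, C77370, Dctn4, Dusp4, Golt1b, Lrp1b, Myc, Myh2, Negr1, Pik3cd (TRCN0000361415), Rbms1 and Sec63 (TRCN0000336301).

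With 1 library of the own pool missing, the direction turned for 16 of 84 members, none of them called: 6 given below, and those against Bzw2, Col5a1, Egfr, Iqgap1, Itga2, Lama3, Myst4, Prkdc, St6gal2 and Tfb2m. These turns were counted for members only. Over all alternatives the direction turned for 7 of the 39 tested hairpins of the naming rule, none of them called. Rab14 (TRCN0000089374) gave 0.53 with edgeR, 0.27 with control hairpins, 0.12 with DESeq2 size factors, 0.077 with the deposited values and -0.71 to 0.89 with a replicate left out. Snrpd1 gave 0.83 with edgeR and -2.82 to 1.72 with a replicate left out (TRCN0000123403), and 0.0096 with DESeq2 size factors and -0.77 to 0.32 with a replicate left out (TRCN0000295005). Timeless (TRCN0000234047) gave -0.96 with own-pool totals, -0.51 with the deposited values and -0.31 to 0.29 with a replicate left out. Slit2 (TRCN0000328094) gave -3.07 with control hairpins and -2.72 with the deposited values, both resting in part on the library labelled lung 16D. Ccl20 ranged from -0.28 to 1.12 and Sipa1l2 (TRCN0000253357) from -0.20 to 0.062 with a replicate left out. The cause was not tested. With 2 or 3 lung libraries per pool, and 1946 own-pool reads in lung 10C, differences in single members are limited by few libraries.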
